A study of Mus musculus with 21 samples.

Results

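The proteasome, which degrades ubiquitin-tagged proteins, and the chaperones, which fold proteins or hold them in solution, were followed in mouse epidermal cells through 126 genes. A gene belonged to the set if its symbol had a proteasome (Psma to Psmg), CCT chaperonin (Cct), heat shock protein (Hspa to Hsph) or J-domain (Dnaja to Dnajc) stem followed by its number. Of 140 symbols that matched, 12 pseudogene symbols and 2 merged symbols (Dnaja3 with Vasn, and Dnajc25 with Gm20503 and Gng10) were left out. The rule does not match Tcp1, the first CCT subunit, or the HSP90 genes, and Psmd1 was present only inside a merged locus. The 126 members were found in all 3 deposited tables, each of which lists between 43943 and 43945 loci per comparison. They comprised 46 proteasome genes, 76 chaperone genes and 4 genes that matched by name alone. Those 4 were Hspg2, which encodes the basement membrane protein perlecan, Hspbap1, the intraflagellar transport gene Hspb11 and the recombination factor gene Psmc3ip.

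The proteasome is built from a barrel-shaped core, whose outer alpha rings gate the entrance and whose inner beta rings cut the substrate, and from a cap whose ATPases unfold substrates and feed them in. Chaperones of the HSP70 family bind exposed stretches of unfolded protein, J-domain proteins deliver clients to them and start ATP hydrolysis, and the CCT ring folds actin and tubulin among others. The lumen of the endoplasmic reticulum (ER) and the mitochondrial matrix each have an HSP70 system of their own. In skin, small heat shock proteins, Hspb1 above all, are known from the differentiating layers of the epidermis.

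The study sequenced polyadenylated RNA from 21 libraries of mouse keratinocytes, in 7 groups of 3, to compare hair follicle stem cells (HFSCs), cultured HFSCs and epidermis, and to characterise cultures called 3C. Of the 9 libraries of the first table, all wild type, the labels describe 3 as HFSCs purified by flow sorting, 3 as cultured HFSCs and 3 as total epidermal cells. The other 12 libraries, for which the labels give no genotype, came from total epidermal cells grown in 3C cultures for 10 to 14 days. They were the CD34+ and CD34neg fractions sorted as positive for alpha-6 integrin, and cultures given dorsomorphin, an inhibitor of BMP type I receptors and AMP-activated kinase, or cyclopamine, an inhibitor of Smoothened in Hedgehog signalling, for 48 h. No untreated culture was part of the drug comparison. The labels give neither strain nor age of the animals, and do not state whether replicates were separate animals or cultures, so the spread behind the deposited tests may be technical.

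The first table names its populations CD34a6, HFSC and bulk. Bulk is read here as total epidermal cells, but no label ties the other 2 columns to the sorted or the cultured cells, so the column names are kept as names. Bulge stem cell markers differed sharply between them, with Cd34 at 8.70 FPKM in HFSC, against 327 in CD34a6, and Krt15 at 37.9 FPKM in HFSC, against 9923 in CD34a6. The basal keratin Krt5 stood at 6893 FPKM in HFSC, against 6494 in CD34a6, and none of 6 keratinocyte markers was at 0 in either. Of these 6, 3 were called higher in HFSC than in CD34a6 and 1 lower. Krt14 was at 8296 FPKM in HFSC, against 1257 in CD34a6, and Trp63 at 143 FPKM in HFSC, against 279 in CD34a6. The 6 fibroblast markers summed to 33.1 FPKM in CD34a6, 0.60 in HFSC and 4.35 in bulk, with Col3a1 and Lum at 0 in CD34a6 and HFSC. In bulk, Krt10 of the suprabasal layers was at 25128 FPKM and the T cell gene Cd3e at 14.8 FPKM. Each table gives 1 FPKM (fragments corrected for exon length and library size) for a gene and population, with no replicate values, so no spread can be set beside an FPKM. The authors' adjusted p is the only test, and called means that it was under 0.05. Tables were normalised separately and are compared within themselves only, and the 3 comparisons of the first table share their populations.

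Of the 126 members, 105 were tested by the authors in every comparison, 6 in some and 15 in none. Among the 15, 6 were listed at 0 in every population, the thymus-specific beta subunit Psmb11 among them. The testis-specific alpha subunit Psma8 did not exceed 0.1 FPKM anywhere. At least 1 comparison called 88 members, and 38 members were called in none.

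Against bulk, transcripts of the proteasome core were lower in CD34a6 almost without exception. Of 14 core subunits tested, 13 were called lower and none higher. Over all members 55 of 111 tested were called lower and 6 higher, while 24.3% of all 14441 tested loci were called lower and 22.0% higher. Among loci whose higher population reached 20 FPKM, 38.5% were called lower, and among loci in the exonic length range of the core 30.8%. The median log2 ratio of the core, with 1 FPKM added to each value, was -1.66, against 0.00 for all tested loci. In RNA from many cells at once, fewer cells of a type and less RNA per cell cannot be told apart.

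**Figure D1:**
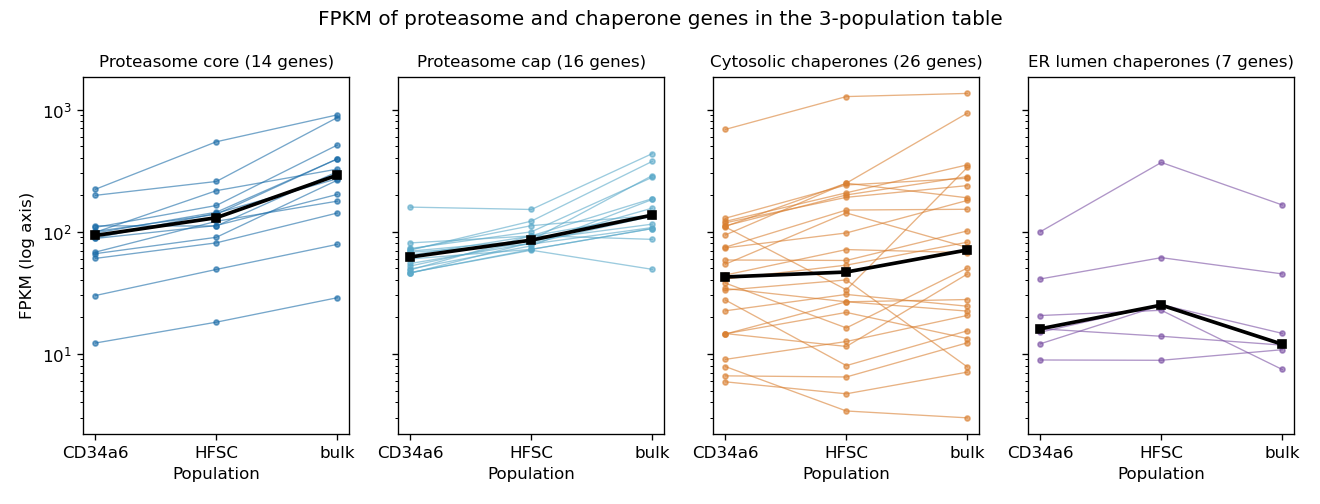
FPKM (log axis) of genes with at least 1 FPKM in 1 of the populations CD34a6, HFSC and bulk, with 1 line per gene and the class median in black. Core medians were 93.0 FPKM in CD34a6, 130.0 in HFSC and 290.2 in bulk, while the ER lumen median was highest in HFSC, at 25.0 FPKM.

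The beta subunits, which form the cutting chamber, had a median log2 ratio of -1.98 for CD34a6 over bulk, and the alpha subunits one of -1.36. Psmb1, a non-catalytic ring member, had the lowest ratio of the core, with 108 FPKM in CD34a6, 164 in HFSC and 511 in bulk. Psmb4, another structural beta subunit, was at 198 FPKM in CD34a6, 258 in HFSC and 859 in bulk. The caspase-like subunit Psmb6 was at 112 FPKM in CD34a6, 111 in HFSC and 309 in bulk, and the trypsin-like subunit Psmb7 at 100.3 FPKM in CD34a6, 139 in HFSC and 394 in bulk. HFSC stood level with CD34a6 for Psmb6 and between the other populations for Psmb7. Psmb5, the chymotrypsin-like subunit and the most abundant core transcript, was at 222 FPKM in CD34a6, 544 in HFSC and 904 in bulk. In spite of these gaps none of its comparisons passed the test, and the authors' deposited table gives 0.0923 as its adjusted p for CD34a6 against bulk.

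All 7 alpha subunits of the gate were called lower in CD34a6 than in bulk. Psma7 had the lowest ratio of them, with 97.4 FPKM in CD34a6, 144 in HFSC and 393 in bulk. Psma6 was at 98.8 FPKM in CD34a6, 216 in HFSC and 325 in bulk. Psma3 had the lowest level of the 14 core subunits in this table, with 12.2 FPKM in CD34a6, 18.1 in HFSC and 28.8 in bulk, whereas in the separately normalised table of culture fractions it stood above the core median in both. The ratio of the highest to the lowest core subunit in FPKM was 18.2 in CD34a6, 30.0 in HFSC and 31.4 in bulk.

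Against bulk, HFSC had 9 of 14 core subunits called lower, with a median log2 ratio of -0.89, or 0.034 once FPKM were scaled to sum to the same total. In this comparison 31 of 110 tested members were called lower and 13 higher, beside 24.7% and 19.0% of 14035 loci, so the share of lower calls over the whole set was close to the background. Among loci whose higher population reached 20 FPKM, 33.8% were called lower. Of the 9 core calls, 7 kept their sign after scaling, and those for Psma1 and Psma4 did not. The calls that kept it included Psmb1, Psmb3, Psmb4, Psmb6 and Psmb7.

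Between HFSC and CD34a6, 57 of 110 tested members were called higher and 12 lower, beside 25.2% and 29.0% of 13962 loci. Among loci whose higher population reached 20 FPKM, 38.3% were called higher and 24.4% lower. Of the core, 10 of 14 subunits were called higher in HFSC and none lower, with a median log2 ratio of 0.55, or 0.32 after scaling. Psma6 had the highest ratio among the called ones, with 216 FPKM in HFSC, against 98.8 in CD34a6. Psmb2, a structural beta subunit, was at 121 FPKM in HFSC, against 68.0 in CD34a6. Psmb6 was not called, and its levels were 111 FPKM in HFSC, against 112 in CD34a6. The order CD34a6 lowest, HFSC between and bulk highest held for 13 of the 14 core subunits, all but Psmb6. It held for 51 of 109 members tested in all 3 comparisons and for 20.1% of 12792 loci.

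**Figure D2:**
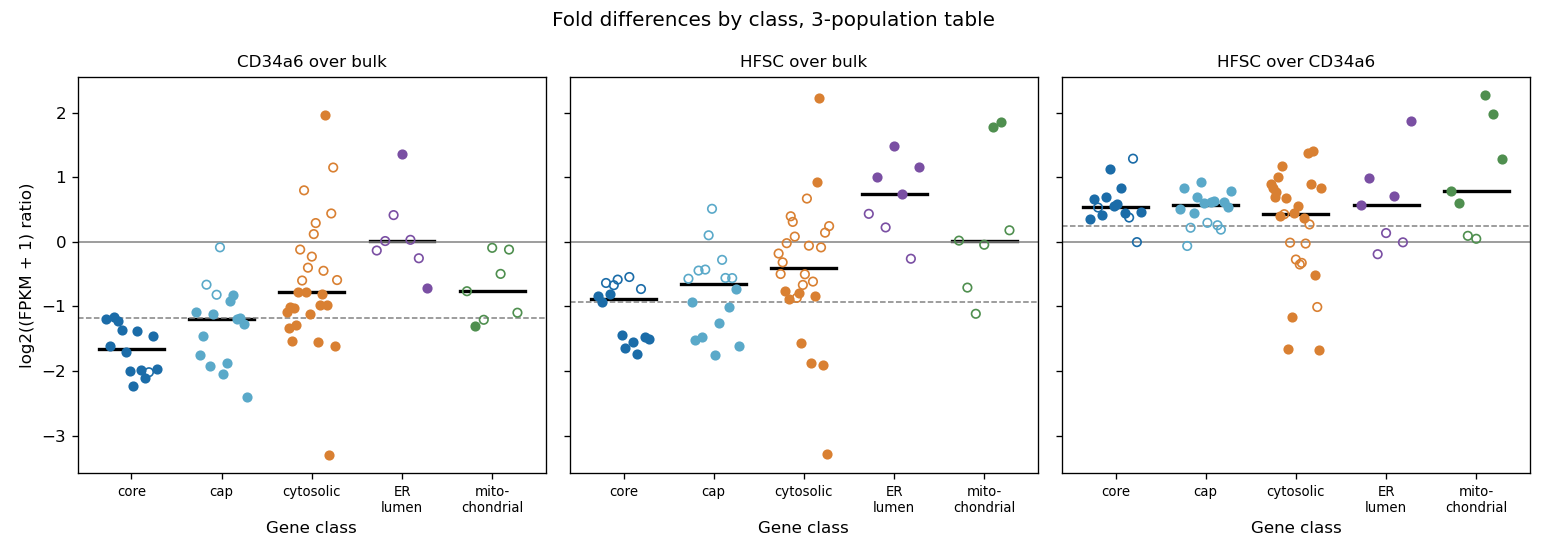
Log2 ratio of FPKM + 1 for each tested gene, by class, in the 3 comparisons of the first table, with filled points for called genes, bars for class medians and a dashed line about where 0 would fall once each population was scaled to the same total. The core median lay at -1.66 for CD34a6 over bulk, where all 14 points are below 0 and all but that of Psma3, which sits at the dashed line, are below both, at -0.89 for HFSC over bulk, just above the dashed line, and at 0.55 for HFSC over CD34a6.

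The FPKM of all loci summed to 406723 in CD34a6, 482175 in HFSC and 917078 in bulk, so the direction of some classes against bulk depends on the scale. Scaling each population to the same total moved the median of all tested loci to 1.00 for CD34a6 over bulk and 0.66 for HFSC over bulk. On that scale the core median stood at -0.49 in CD34a6 over bulk, with all 14 subunits below 0, and 1.49 below the median of all loci. In HFSC over bulk it stood at 0.034, or 0.63 below the median of all loci. Of the 55 lower calls for CD34a6, 37 kept their sign, and of the 31 for HFSC, 23 did. A higher call against bulk could not change sign, since this scaling raises every ratio over bulk.

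Short transcripts as a whole were lower in CD34a6 than in bulk. With tested loci divided into 10 equal groups by merged exonic length, the group of shortest loci had a median log2 ratio of -0.62 and the group of longest loci 0.51. Subtracting the median of each group left the core at -1.27 and the cap at -1.07, and every called member kept its sign.

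**Figure D3:**
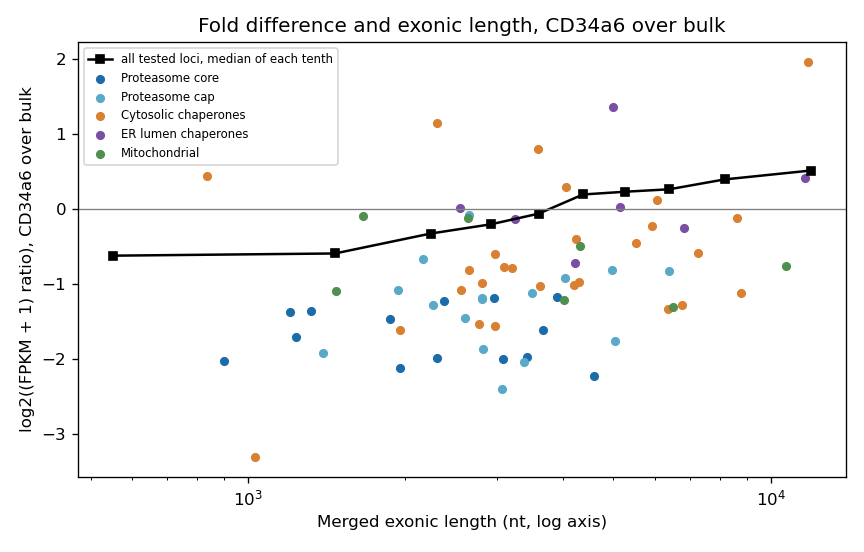
Log2 ratio of FPKM + 1, CD34a6 over bulk, against merged exonic length (log axis), with coloured points for members of 5 classes and black squares for the medians of 10 equal groups of all tested loci by length. All 14 core subunits lie below the line of medians, while ER lumen chaperones lie on both sides of it.

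The immunoproteasome subunits, which replace the 3 catalytic beta subunits in cells exposed to interferon and in immune cells, included the members with the lowest ratios for CD34a6 over bulk, Psmb8 and Psmb9. Psmb8 was at 2.82 FPKM in CD34a6, 24.0 in HFSC and 46.8 in bulk, and was called lower in CD34a6 than in bulk and higher in HFSC than in CD34a6. Psmb9 was at 4.30 FPKM in CD34a6, 10.5 in HFSC and 58.9 in bulk, lower by call in both columns than in bulk. Psmb10 was at 2.56 FPKM in CD34a6, 16.2 in HFSC and 20.6 in bulk and passed no test, its adjusted p being 0.339 for CD34a6 against bulk in the authors' deposited table. Summed, the 3 made up 2.18% of the FPKM of the 6 catalytic subunits in CD34a6, 6.0% in HFSC and 7.28% in bulk.

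Genes of antigen presentation, which uses peptides cut by the proteasome, were called lower in CD34a6 than in bulk for 7 of 7 tested, with a median log2 ratio of -2.62. B2m, the light chain of class I molecules, was at 143 FPKM in CD34a6, against 1579.9 in bulk, and the class I heavy chain gene H2-K1 at 95.9 FPKM in CD34a6, against 876 in bulk. Against CD34a6, HFSC had 4 of 7 called higher and none lower, beside 25.2% and 29.0% of 13962 loci. The interferon regulator Irf1 was at 24.7 FPKM in HFSC, against 1.93 in CD34a6. Markers of immune cells moved with these genes against bulk. Of 10 such markers, 9 were called lower in CD34a6 and 6 in HFSC, and they summed to 9.38 FPKM in CD34a6, 3.96 in HFSC and 491 in bulk. Lyz2 and Ptprc were at 0 in HFSC. The part of immune cells in the bulk values was not tested. The loci of Psmb8 and Psmb9 overlap Tap2 and Tap1 in the tables, so reads of these neighbours may be split uncertainly between them.

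**Figure D4:**
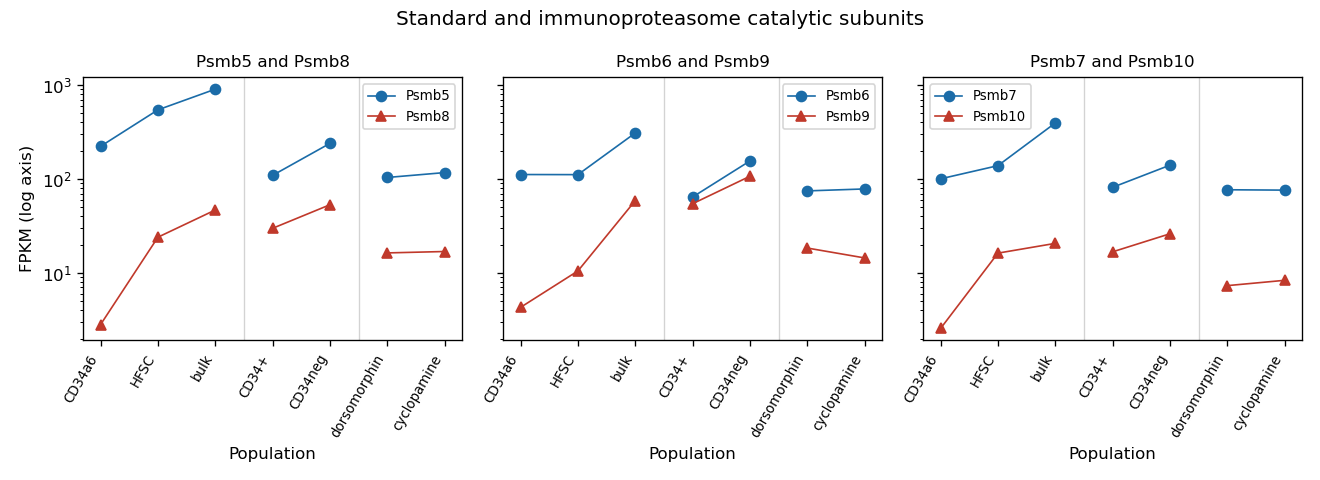
FPKM (log axis) of each standard catalytic subunit (blue circles) and its immunoproteasome counterpart (red triangles) in the 7 populations, with vertical lines between tables that were normalised separately. Psmb8 stood at 2.82 FPKM in CD34a6, 24.0 in HFSC and 46.8 in bulk. Psmb9 was at 84.8% of the Psmb6 level in the CD34+ fraction and 68.7% in the CD34neg fraction.

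The cap had calls in the same directions as the core. Against bulk, 13 of 16 tested cap subunits were called lower in CD34a6, with a median log2 ratio of -1.19 that came to -0.03 after scaling to the same total. In HFSC 8 of 16 were called lower than in bulk, with a median of -0.65 that turned to 0.27 after scaling. Against CD34a6, HFSC had 11 of 16 called higher and none lower, with a median of 0.57, close to the 0.55 of the core. Psmd8, a lid subunit, had the lowest ratio of the cap, with 70.6 FPKM in CD34a6, 122 in HFSC and 376 in bulk. Psmd13, another lid subunit, was at 69.2 FPKM in CD34a6, 85.1 in HFSC and 288 in bulk, in a locus that overlaps other genes. Psmd14, the enzyme that removes ubiquitin from arriving substrates, was at 49.5 FPKM in CD34a6, 76.5 in HFSC and 183 in bulk.

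Of the 6 cap ATPases, 5 were called lower in CD34a6 than in bulk and 3 in HFSC. Psmc5 was at 72.8 FPKM in CD34a6, 99.7 in HFSC and 279 in bulk, and Psmc3 at 159 FPKM in CD34a6, 152 in HFSC and 435 in bulk. Psmd11 and Psmd12 left this pattern. Psmd11, a lid subunit, was at 48.6 FPKM in CD34a6, 92.9 in HFSC and 86.5 in bulk, and Psmd12 at 46.3 FPKM in CD34a6, 70.5 in HFSC and 49.1 in bulk. Both were called higher in HFSC than in CD34a6, and neither passed the test against bulk.

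Activators dock on the core in place of the cap. Psme1 and Psme2, the interferon-induced subunits of PA28, were called lower than in bulk in both columns, although these calls changed sign in HFSC after scaling. Psme2 was at 42.6 FPKM in CD34a6, 97.7 in HFSC and 181 in bulk. Psme3, the nuclear PA28 gamma, was at 56.7 FPKM in CD34a6, 109 in HFSC and 52.8 in bulk, and Psme4, the large activator PA200, at 21.5 FPKM in CD34a6, 34.5 in HFSC and 21.7 in bulk. Both were called higher in HFSC than in bulk. Against CD34a6, HFSC had Psme2, Psme3 and Psme4 called higher, with Psme2 showing the largest ratio of the 3. After scaling, all 4 activators were above 0 in HFSC over bulk, as were 9809 of 14035 tested loci. Psmf1, an inhibitor of the core, was at 16.2 FPKM in CD34a6, 16.2 in HFSC and 23.9 in bulk and was called in no comparison. Of 6 tested assembly chaperones, 3 were called lower in CD34a6 than in bulk, none of them keeping its sign after scaling.

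Partners of the proteasome outside the set, such as ubiquitin genes and shuttle factors, were also compared. Of 14 tested, 9 were called lower in CD34a6 than in bulk and none higher, beside 24.3% and 22.0% of 14441 loci. Their median log2 ratio of -0.90 turned to 0.25 after scaling, with 10 of the 14 then above 0. On that scale 10979 of 14441 tested loci were above 0, with a median of 1.00, so the partners stayed below the median of all loci. Shfm1, which encodes the small cap subunit Sem1, was at 31.5 FPKM in CD34a6, against 126 in bulk, and the core maturation factor Pomp at 90.9 FPKM in CD34a6, against 224 in bulk. Against CD34a6, HFSC had 6 called higher and 1 lower, beside 25.2% and 29.0% of 13962 loci. Where the higher population reached 20 FPKM, 38.3% of loci were called higher. The shuttle factor Rad23b was at 109 FPKM in HFSC, against 43.7 in CD34a6.

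Cytosolic chaperones had members called in both directions in each comparison of the first table. Against bulk, 16 of 28 tested were called lower in CD34a6 and 1 higher, beside 24.3% and 22.0% of all tested loci. Their median log2 ratio of -0.79 turned to 0.32 after scaling. In HFSC 8 of 27 were called lower than in bulk and 2 higher, beside 24.7% and 19.0% of all tested loci. Where the higher population reached 20 FPKM, 33.8% of loci were called lower there. The median for HFSC over bulk, -0.40, turned to 0.51 after scaling. Of the 16 lower calls for CD34a6, 8 kept their sign after scaling. Against CD34a6, HFSC had 16 of 28 called higher and 4 lower, beside 25.2% and 29.0% of all tested loci. The median there was 0.44, or 0.21 after scaling.

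Hspa8, the constitutive HSP70 and the most abundant member, was at 688 FPKM in CD34a6, 1276 in HFSC and 1354 in bulk, so HFSC lay near bulk. Its lower call for CD34a6 against bulk changed sign after scaling. Hspa4l, an HSP110-type exchange factor that reloads HSP70, went the other way, with 33.2 FPKM in CD34a6, 40.2 in HFSC and 7.81 in bulk, and was called higher than in bulk in both columns. Its relative Hspa4 was at 54.2 FPKM in CD34a6, 142 in HFSC and 74.2 in bulk, highest in HFSC. Hsph1, the third of this type, was at 14.5 FPKM in CD34a6, 26.7 in HFSC and 22.4 in bulk and was called higher in HFSC than in CD34a6.

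The stress-inducible HSP70 genes Hspa1a and Hspa1b are near-identical copies on chromosome 17, so the split of reads between them is uncertain. Their FPKM summed to 55.6 in CD34a6, 64.6 in HFSC and 127 in bulk, which was 8.09% of the Hspa8 level in CD34a6, 5.06% in HFSC and 9.36% in bulk. Hspa2, an HSP70 best known from testis, was at 6.59 FPKM in CD34a6, 6.46 in HFSC and 12.3 in bulk. Dnajb1, the inducible HSP40, was at 58.6 FPKM in CD34a6, 58.1 in HFSC and 101 in bulk, and its lower calls against bulk changed sign after scaling. Dnaja1, another general J-protein, was at 22.5 FPKM in CD34a6, 30.6 in HFSC and 24.5 in bulk and was called in no comparison. Dnaja4 and Dnajb2, J-proteins of the cytosol, were called lower in HFSC than in CD34a6, Dnaja4 at 8.0 FPKM in HFSC, against 27.5 in CD34a6, and Dnajb2 at 16.3 FPKM in HFSC, against 37.9 in CD34a6.

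Small heat shock proteins, which hold unfolding proteins in solution without ATP, held the lowest ratio among cytosolic chaperones in each comparison of the first table. Hspb1 was at 94.0 FPKM in CD34a6, 249 in HFSC and 933 in bulk, called in all 3 comparisons. Hspb8, which works with the co-chaperone Bag3 in selective autophagy, had another order, with 109 FPKM in CD34a6, 33.4 in HFSC and 335 in bulk. HFSC was thus the lowest population for Hspb8 and the middle one for Hspb1. In CD34a6 Bag3 was itself called higher than in bulk, with 38.6 FPKM in CD34a6, against 10.6 in bulk. Suprabasal keratinocyte markers, where Hspb1 is known from, were called lower for 10 of 11 loci tested in CD34a6 and 10 of 11 in HFSC against bulk, several of these loci being named Flg. The 5 genes behind these loci summed to 1120.2 FPKM in CD34a6, 198 in HFSC and 34332 in bulk, none of them at 0, and Krt10 made up most of each sum in CD34a6 and bulk. Between HFSC and CD34a6 these loci were split, with 6 of 10 tested called higher in HFSC, Ivl and Flg loci, and 3 lower, Krt1, Krt10 and Lor. Ivl, a cornified envelope gene, was at 30.1 FPKM in HFSC, against 6.29 in CD34a6. The part of suprabasal cells in the Hspb1 values was not tested.

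The CCT ring was called as a whole in the comparisons of CD34a6. All 7 tested subunits were called lower in CD34a6 than in bulk and all 7 higher in HFSC than in CD34a6. Cct5 was at 121 FPKM in CD34a6, 208 in HFSC and 352 in bulk, and Cct8 at 110.3 FPKM in CD34a6, 249 in HFSC and 189 in bulk, which put Cct8 highest in HFSC. Its remaining subunit Tcp1, outside the set, had 139.5 FPKM in CD34a6, against 376 in bulk, called lower, and was called higher in HFSC than in CD34a6 (321 FPKM in HFSC, against 139.5 in CD34a6). After scaling, 4 of the 7 lower calls of CD34a6 against bulk (Cct2, Cct4, Cct6a and Cct8) changed sign. Between HFSC and bulk, 2 of 7 were called lower (Cct5 and Cct7) and none higher, beside 24.7% and 19.0% of all tested loci. Both calls changed sign after scaling.

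ER lumen chaperones had few lower calls. Of 7 tested, 1 was called lower and 1 higher in CD34a6 than in bulk, with a median log2 ratio of 0.01, or 1.13 after scaling. In HFSC 4 were called higher than in bulk and none lower, with a median of 0.74, or 1.65 after scaling, while the core stood at -0.89, or 0.034 after scaling, in the same comparison. After scaling all 7 were above 0 against bulk in both columns. So were 10979 of 14441 tested loci for CD34a6 and 9809 of 14035 for HFSC. The scaled median of all tested loci was 1.00 for CD34a6 and 0.66 for HFSC, so the ER median for CD34a6 was near it. The difference between the classes was not tested, since each population has 1 value a gene. Against CD34a6, HFSC had 4 of 7 called higher and none lower, beside 25.2% and 29.0% of 13962 loci, with a median of 0.57.

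Hspa5, the ER HSP70 known as BiP and a marker of the unfolded protein response, was at 99.96 FPKM in CD34a6, 369 in HFSC and 165 in bulk. HFSC was the highest and CD34a6 the lowest population, though the lower call of CD34a6 against bulk changed sign after scaling. Dnajb9, which guides BiP to misfolded proteins and to the sensor Ire1, was at 12.1 FPKM in CD34a6, 25.0 in HFSC and 12.0 in bulk. Dnajc3, a J-protein and inhibitor of the kinase Perk, was at 15.0 FPKM in CD34a6, 25.3 in HFSC and 14.7 in bulk. Dnajb11, a J-protein that binds nascent clients, was at 41.0 FPKM in CD34a6, 61.2 in HFSC and 45.1 in bulk. Dnajc10, a disulfide reductase, was at 20.6 FPKM in CD34a6, 22.7 in HFSC and 7.44 in bulk and was the ER member higher by call than in bulk in both columns. Hspa13, an HSP70 of microsomes, was at 8.89 FPKM in CD34a6, 8.84 in HFSC and 10.8 in bulk and Dnajc1 at 16.0 FPKM in CD34a6, 13.9 in HFSC and 11.8 in bulk. Neither was called in any comparison.

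Promoters of 3 ER members are shown for genes called higher in HFSC than in CD34a6 whose windows hold ER stress elements. Windows of 300 bases (250 before to 50 after the annotated start) from RefSeq, build GRCm38.p6, were found for 105 of 126 members and searched on both strands. The ER stress response element, searched as CCAAT and CCACG with any 9 bases between them, occurred in Dnajc3 and Hspa5 and in 0.137% of all 27025 genes with a window. Its relative, searched as ATTGG and CCACG with any 1 base between them, occurred in Dnajb11 alone among the members and in 0.0444% of all genes. Capitals mark the match, and the windows are Hspa5 at chr2:34771840-34772139 (plus strand), Dnajc3 at chr14:118937682-118937981 (plus strand) and Dnajb11 at chr16:22857595-22857894 (plus strand).
Hspa5: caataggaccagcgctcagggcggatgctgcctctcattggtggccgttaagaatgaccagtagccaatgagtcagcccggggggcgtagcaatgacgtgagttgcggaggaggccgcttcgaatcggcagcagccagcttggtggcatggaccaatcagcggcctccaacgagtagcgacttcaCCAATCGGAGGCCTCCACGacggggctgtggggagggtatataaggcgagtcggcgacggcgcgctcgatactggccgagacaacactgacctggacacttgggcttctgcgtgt
Dnajc3: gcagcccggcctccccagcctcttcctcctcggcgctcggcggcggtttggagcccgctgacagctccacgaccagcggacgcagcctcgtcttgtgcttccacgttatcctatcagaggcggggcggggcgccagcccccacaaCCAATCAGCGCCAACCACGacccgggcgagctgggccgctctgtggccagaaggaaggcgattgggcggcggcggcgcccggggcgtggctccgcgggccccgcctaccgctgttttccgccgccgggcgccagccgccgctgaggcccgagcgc
Dnajb11: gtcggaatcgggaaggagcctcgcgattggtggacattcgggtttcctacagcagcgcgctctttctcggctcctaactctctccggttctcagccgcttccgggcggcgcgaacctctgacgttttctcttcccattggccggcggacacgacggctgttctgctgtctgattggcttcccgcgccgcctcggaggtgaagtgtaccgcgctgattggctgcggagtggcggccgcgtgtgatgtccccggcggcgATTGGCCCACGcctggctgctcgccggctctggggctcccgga
Each element holds a CCAAT box (ATTGG on the other strand), and a match is a description of letters, not a bound site. The 3 genes were shown because they were called higher in HFSC than in CD34a6, as were 57 of 110 tested members, so that call is no result about the elements. Hspa5 and Dnajc3 were also called higher in HFSC than in bulk, as were 13 of 110 tested members. A link between the elements and the calls was not tested.

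Wider ER folding genes outside the set went the same way between the 2 columns. Of 16 tested, 14 were called higher in HFSC than in CD34a6 and 1 lower, beside 25.2% and 29.0% of 13962 loci. Their median log2 ratio was 0.92. Ero1l, the oxidase that drives disulfide formation, was at 45.7 FPKM in HFSC, against 3.45 in CD34a6, and Herpud1, of ER-associated degradation, at 76.2 FPKM in HFSC, against 16.9 in CD34a6. Against bulk, CD34a6 had 7 of 16 called lower and none higher, beside 24.3% and 22.0% of 14441 loci. The median log2 ratio there, -0.58, turned to 0.58 after scaling, with 12 of the 16 then above 0. On that scale 10979 of 14441 tested loci were above 0, with a median of 1.00, so the class stayed below the median of all loci.

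Mitochondrial chaperones were mostly higher in HFSC than in CD34a6. Hspa9, the HSP70 of the matrix, was at 54.8 FPKM in CD34a6, 268 in HFSC and 77.7 in bulk, and the chaperonin Hspd1 at 45.9 FPKM in CD34a6, 183 in HFSC and 49.9 in bulk. Both were called higher in HFSC than in each of the other populations. Hspe1, the lid of the same chaperonin, was at 44.9 FPKM in CD34a6, 110.0 in HFSC and 97.1 in bulk. Hspd1 and Hspe1 lie head to head on chromosome 1 and share 1 locus in the tables, so reads at their overlap are uncertain. Of 7 tested mitochondrial members, 5 were called higher in HFSC than in CD34a6 and none lower, beside 25.2% and 29.0% of 13962 loci.

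The heat shock element, searched as GAA, TTC and GAA with any 2 bases between neighbours, was found in the windows of 4 members (Dnajb6, Hspd1, Hspe1 and Hsph1), or 3.81% of the 105, and in 0.662% of all genes. The window of Hspd1, chr1:55087883-55088182 on the minus strand, is shown because 2 matches overlap in it and lie between the RefSeq start sites of the pair.
Hspd1: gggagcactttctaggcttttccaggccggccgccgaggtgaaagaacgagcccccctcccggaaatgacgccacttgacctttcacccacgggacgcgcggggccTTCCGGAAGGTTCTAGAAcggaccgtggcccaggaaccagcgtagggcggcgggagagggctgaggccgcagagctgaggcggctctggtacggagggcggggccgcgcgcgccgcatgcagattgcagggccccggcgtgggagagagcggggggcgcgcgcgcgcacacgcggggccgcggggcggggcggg
The matches in the Hspe1 window are the same bases read on the other strand, so Hspd1 and Hspe1 do not hold separate sites. In HFSC over CD34a6, all 4 genes with the element were called higher, as were 57 of 110 tested members and 25.2% of 13962 loci. A link between the element and the calls was not tested.

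The catalytic subunits Psmb5 and Psmb6 held the core letters TGACNNNGC of the antioxidant response element, bound by Nfe2l1 and Nfe2l2, which drive proteasome genes. The letters occurred in 18 members, or 17.1% of the 105, and in 14.0% of all genes, so they are common. The windows are Psmb5 at chr14:54617946-54618245 (minus strand) and Psmb6 at chr11:70525107-70525406 (plus strand).
Psmb5: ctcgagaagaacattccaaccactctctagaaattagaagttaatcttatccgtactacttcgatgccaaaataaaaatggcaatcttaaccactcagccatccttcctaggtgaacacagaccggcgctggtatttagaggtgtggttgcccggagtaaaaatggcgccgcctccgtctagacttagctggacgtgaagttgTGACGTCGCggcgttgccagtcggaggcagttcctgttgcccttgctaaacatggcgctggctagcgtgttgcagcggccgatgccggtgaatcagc
Psmb6: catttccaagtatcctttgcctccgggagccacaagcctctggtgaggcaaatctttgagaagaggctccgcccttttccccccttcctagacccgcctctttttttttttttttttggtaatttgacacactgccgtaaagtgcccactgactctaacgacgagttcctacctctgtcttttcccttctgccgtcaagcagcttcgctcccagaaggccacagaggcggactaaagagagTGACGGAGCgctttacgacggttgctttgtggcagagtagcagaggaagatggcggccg
Both matches begin with TGACG, letters that the cAMP response element also holds. Neither Psmb5 nor Psmb6 was called between HFSC and CD34a6. The core of the interferon-stimulated response element, searched as GAAA and GAAA with any 2 bases between them, occurred in 6 members (5.71%), the activator Psme1 among them, and in 3.99% of all genes, and Psmb8, Psmb9 and Psmb10 were not among the 6.

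Regulators of these systems had 6 of 11 tested called higher in HFSC than in CD34a6 and 1 lower. Over all 13962 tested loci 25.2% were called higher and 29.0% lower. Where the higher population reached 20 FPKM, 38.3% of loci were called higher and 24.4% lower. Nfe2l2 was at 111 FPKM in HFSC, against 25.1 in CD34a6, and Nfe2l1 at 185 FPKM in HFSC, against 68.4 in CD34a6. Atf4, the transcription factor of the integrated stress response, was at 216 FPKM in HFSC, against 73.4 in CD34a6, and its target Ddit3 at 46.9 FPKM in HFSC, against 15.9 in CD34a6. Hsf1, the main heat shock factor, was called higher in CD34a6 than in bulk, at 22.1 FPKM in CD34a6, against 9.56 in bulk. Xbp1, a factor of the unfolded protein response, was called lower in CD34a6 at 22.5 FPKM in CD34a6, against 142 in bulk, and lower in HFSC at 42.3 FPKM in HFSC, against 142 in bulk.

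HSP90 genes and co-chaperones outside the set were also mostly higher in HFSC than in CD34a6. Of 10 tested HSP90 and CCT partner genes, 7 were called higher in HFSC than in CD34a6 and none lower. Over all 13962 tested loci 25.2% were called higher and 29.0% lower in this comparison. Hsp90aa1, the inducible cytosolic HSP90, was at 491 FPKM in HFSC, against 182 in CD34a6, and Hsp90b1, its ER counterpart, at 618 FPKM in HFSC, against 279 in CD34a6. Of 14 co-chaperones, 10 were called higher and 1 lower, and the steroid receptor co-chaperone Fkbp5 was at 70.4 FPKM in HFSC, against 7.63 in CD34a6.

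Members outside these classes included some of the largest folds. Hspa12a, a distant HSP70 relative, was at 1.41 FPKM in CD34a6, 0.0286 in HFSC and 8.88 in bulk. Hspg2 was at 71.0 FPKM in CD34a6, 14.2 in HFSC and 6.90 in bulk, called higher in CD34a6 than in bulk and lower in HFSC than in CD34a6. Dnajc2, a J-protein of the ribosome, was called higher in HFSC than in both other populations, with 13.6 FPKM in CD34a6, 31.0 in HFSC and 13.5 in bulk. Dnajc9, a histone chaperone, was called higher in CD34a6 than in bulk, with 33.0 FPKM in CD34a6, 18.1 in HFSC and 19.1 in bulk. Dnajc4 was at 18.4 FPKM in CD34a6, 10.1 in HFSC and 36.5 in bulk, and Dnajc17 at 10.3 FPKM in CD34a6, 5.49 in HFSC and 15.5 in bulk. Psmc3ip was at 11.2 FPKM in CD34a6, 3.84 in HFSC and 2.93 in bulk, called lower in HFSC than in CD34a6.

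In the sorted fractions of 3C cultures, core subunits were lower in CD34+ cells, and few other members were called. Of 107 tested members 13 were called lower and none higher, beside 4.71% and 2.08% of 11370 loci. Of loci with at least 20 FPKM 9.95% were called lower. Of the 14 core subunits 8 were called lower, with a median log2 ratio of -0.82, or -0.41 after scaling. The median of all tested loci was -0.07 before that scaling and 0.31 after it. All 13 calls kept their sign on that scale.

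Psmb6 had the lowest ratio, at 64.3 FPKM in CD34+ cells, against 156 in CD34neg cells. Psmb5 was at 109 FPKM in CD34+ cells, against 239.7 in CD34neg cells, and passed here (adjusted p = 0.00275 in the authors' deposited table). Psma5 was at 80.4 FPKM in CD34+ cells, against 176 in CD34neg cells, and Psma7 at 137 FPKM in CD34+ cells, against 276 in CD34neg cells. The remaining core calls were Psma6, Psmb1, Psmb2 and Psmb3. Beyond the core the calls were the ATPase Psmc5 (65.8 FPKM in CD34+ cells, against 115 in CD34neg cells), the activator Psme2 (98.5 FPKM in CD34+ cells, against 195 in CD34neg cells), the assembly chaperone Psmd10 (31.9 FPKM in CD34+ cells, against 67.1 in CD34neg cells), the chaperonin subunit Cct6a (75.1 FPKM in CD34+ cells, against 132 in CD34neg cells) and Dnajc15 of the mitochondrial import motor (27.7 FPKM in CD34+ cells, against 55.4 in CD34neg cells).

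The cap had 1 of 16 called lower, with a median log2 ratio of -0.46, or -0.05 after scaling. Cytosolic chaperones had 1 of 27 called lower, with a median of -0.16 that turned to 0.24 after scaling, and none of 7 ER lumen members was called. Among these, Hspa8 was at 1126 FPKM in CD34+ cells, against 1964 in CD34neg cells, with an adjusted p of 0.16, and Hspa5 at 292 FPKM in CD34+ cells, against 364 in CD34neg cells, with 0.399, both in the authors' deposited table. Hspb1 was at 331 FPKM in CD34+ cells, against 352 in CD34neg cells. Hspe1 was at 211 FPKM in CD34+ cells, against 455 in CD34neg cells, and Hspd1 at 174 FPKM in CD34+ cells, against 163 in CD34neg cells. The difference between the core and the other classes was not tested.

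Immunoproteasome subunits were expressed in these fractions while most immune markers were at 0. Psmb8 was at 29.9 FPKM in CD34+ cells, against 53.2 in CD34neg cells, and Psmb9 at 54.6 FPKM in CD34+ cells, against 107 in CD34neg cells. Their adjusted p were 0.05 for Psmb8, just over the threshold before rounding, and 0.22 for Psmb9 in the authors' deposited table. Psmb9 was at 84.8% of the Psmb6 level in CD34+ cells and 68.7% in CD34neg cells. The 3 subunits made up 28.4% of the catalytic FPKM in CD34+ cells and 25.8% in CD34neg cells. Of 10 immune markers 8 were at 0 in both fractions, Cd3e and Ptprc included. The others were H2-Ab1, at 6.03 FPKM in CD34+ cells, against 8.14 in CD34neg cells, and Cd74, at 1.71 FPKM in CD34+ cells, against 0.75 in CD34neg cells. Neither was called.

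**Figure D5:**
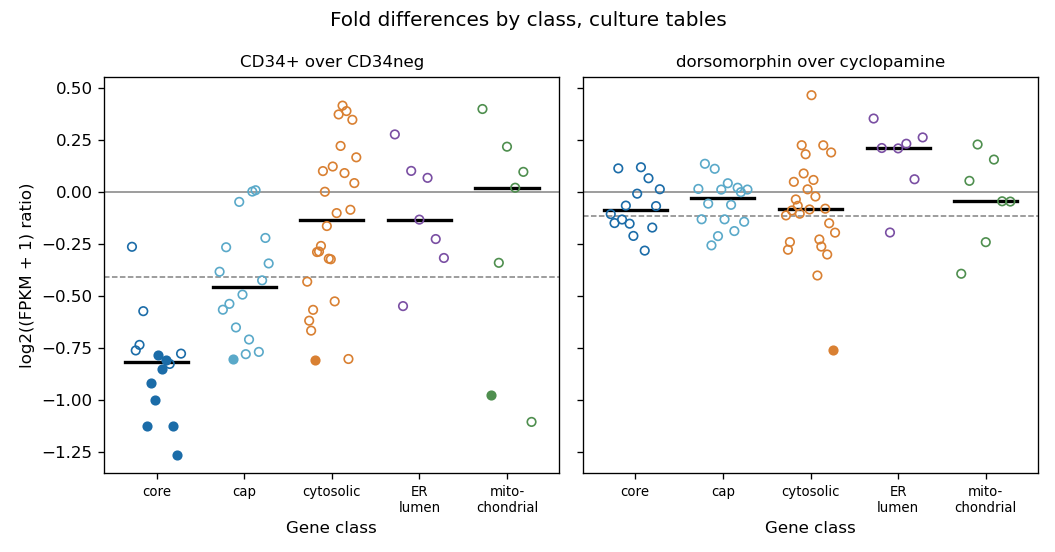
Log2 ratio of FPKM + 1 for each tested gene, by class, in the culture tables, drawn as in the plot for the first table. Core subunits lay below 0 for CD34+ over CD34neg, with a median of -0.82 and all 14 points negative, and close to 0 for dorsomorphin over cyclopamine, with a median of -0.09.

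Few members were called between dorsomorphin and cyclopamine. Of 105 tested members, 2 were called lower with dorsomorphin and none higher, beside 1.31% and 1.26% of 11505 loci. They were Hspb8, at 21.4 FPKM with dorsomorphin, against 37.0 with cyclopamine (adjusted p = 0.0227 in the authors' deposited table), and Hspbap1, at 1.25 FPKM with dorsomorphin, against 2.39 with cyclopamine. Of 10 tested suprabasal marker loci, 6 were called lower with dorsomorphin and 1 higher, with sums of 161 FPKM with dorsomorphin and 288 with cyclopamine, and their part in the Hspb8 call was not tested. None of the 14 core, 16 cap or 7 ER lumen members was called. Class medians were -0.09 for the core, -0.03 for the cap, -0.08 for cytosolic chaperones and 0.21 for ER lumen chaperones. After scaling they were 0.026 for the core, 0.084 for the cap, 0.033 for cytosolic chaperones and 0.33 for ER lumen chaperones, so the first 3 turned sign.

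Levels of the main chaperones under the drugs are given side by side. Hspa5 was at 700.5 FPKM with dorsomorphin, against 584 with cyclopamine (adjusted p = 0.495 in the authors' deposited table), and Hspa8 at 1101 FPKM with dorsomorphin, against 1356 with cyclopamine. Hspb1 was at 399 FPKM with dorsomorphin, against 443 with cyclopamine, and Psmb5 at 104 FPKM with dorsomorphin, against 117 with cyclopamine. The ER folding genes Ero1l and Herpud1, outside the set, were called higher with dorsomorphin, Ero1l at 469 FPKM with dorsomorphin, against 254 with cyclopamine, and Herpud1 at 56.4 FPKM with dorsomorphin, against 33.4 with cyclopamine. The ubiquitin gene Ubb was called lower, at 31.7 FPKM with dorsomorphin, against 44.2 with cyclopamine. Of 11 regulators none was called, and Nfe2l2 was at 293 FPKM with dorsomorphin, against 248 with cyclopamine.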

How the data were processed

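FPKM values, 1 for each locus and population, were deposited by the authors in 3 tables whose headers are those of Cuffdiff. Log2 fold changes, p-values and q-values (adjusted p) were also deposited by the authors and are the only test used. The q-values could be rebuilt from the p-values by the Benjamini-Hochberg method over a table's tested loci, pooled over the 3 pairs of the first table, to within 5.29e-07. Per the submitters' processing notes, the first table's libraries were handled with Cufflinks 2.2.1, Cuffdiff, HISAT 0.1.6 and StringTie 1.1.0, and the others with DESeq2 1.8.1, featureCounts from Subread 1.4.2 and TopHat2 2.0.13, on GRCm38. Which tool made the p-values of the culture tables is not settled. No counting intervals are given, since library depth is unknown.

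Values were assigned by the population named on each line, repeated lines were dropped, HFSC levels were read on its lines against bulk, and ratios were turned to the direction stated. The column 3C_HFSC was read as the CD34+ fraction, since the labels name CD34+ and CD34neg for that table. Class medians used log2 of FPKM + 1, which understates folds of low genes. Scaling to the same total divides each FPKM by the population's sum (TPM). Exonic lengths came from GENCODE vM21, promoters from RefSeq. The adjustment and the direction of calls were tested on simulated data. Work was done in Python 3.11.15 with pandas 2.3.3 and numpy 2.4.6. The plan to use limma or edgeR where values per replicate were present did not apply.

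The members and lists were chosen with earlier results of these data known. Named genes were catalytic and immunoproteasome subunits, activators, main HSP70, small HSP, ER and mitochondrial chaperones, the 6 largest folds a direction among called members of at least 5 FPKM, the extremes of each class, and at most 4 genes of each pathway list and pair. Psmb3, Tcp1, Cct5, Cct8 and other genes named beside these were chosen after their values were seen. Of the loci, 58 overlap another annotated gene.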

Additional observations from a re-analysis of the deposited data

How the results depend on the processing

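Counts of called members stayed within 1.5 times of those reported when only loci of at least 1 FPKM or folds of at least 1.5 were kept, and when p was adjusted within a pair of the first table alone. An adjusted p under 0.01 left 7 members higher and 19 lower for HFSC against bulk, 5 lower for CD34+ against CD34neg and 0 lower for dorsomorphin against cyclopamine. Without the members whose loci overlap another annotated gene, 36 were lower for CD34a6 against bulk, 37 higher and 6 lower for HFSC against CD34a6, 8 lower for CD34+ against CD34neg and 1 lower for dorsomorphin against cyclopamine, since fewer genes were counted. Scaling each population to the same total turned the cytosolic chaperone median to 0.32 for CD34a6 against bulk. For HFSC against bulk it turned the core to 0.034, the cap to 0.27 and cytosolic chaperones to 0.51. For CD34+ against CD34neg it turned cytosolic chaperones to 0.24 and ER chaperones to 0.27. It moved ER chaperones to 1.13 for CD34a6 and 1.65 for HFSC against bulk, and for dorsomorphin against cyclopamine it turned the core to 0.026, the cap to 0.084 and cytosolic chaperones to 0.033. By construction it adds the same amount to every gene of a comparison, apart from the added 1 FPKM. Class medians moved little with pseudocounts of 0.1 or 0.01 or with a minimum of 1 FPKM. Subtracting the length trend, which was chosen after seeing the data, as were the counts of calls that keep their sign, left the core at -1.27 for CD34a6 against bulk and turned the ER median there to -0.099. For CD34+ against CD34neg it moved the cap to -0.25 and cytosolic chaperones to -0.023. For dorsomorphin against cyclopamine it moved the core to -0.014 and turned the cap to 0.011. Subtracting the median of all tested loci changed no sign, and moved cytosolic chaperones to -0.093 and ER chaperones to -0.063 for CD34+ against CD34neg, and the cap to -0.0093 for dorsomorphin against cyclopamine. No paired analysis was possible because the tables hold no values per replicate, and for the same reason no replicate could be left out. With the depth unknown and 1 value a population, precision rests on the authors' test.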
